A study of Mus musculus with 6 samples.

Results

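The Phf11 gene family of the mouse comprises Phf11a, Phf11b, Phf11c and Phf11d, 4 of the 21512 genes in a table of whole-liver RNA. All genes whose symbol is Phf11 followed by 1 letter were taken as members, and the family was picked because Phf11a and Phf11c were higher after anti-PD-1 in these same livers. The difference between the groups is therefore given for each member as a description, with its standard error (SE) and without a test.

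The livers came from 6 C57BL/6J mice, all given a high-fat diet with carbon tetrachloride (HFD/CCl4) for 12 weeks as a model of metabolic dysfunction-associated steatohepatitis (MASH). An antibody against PD-1, a receptor that restrains T cells once they are activated, was given to 3 mice every 3 days, and an isotype control antibody to 3. No group without the diet and CCl4 was analysed, so both groups carry the disease model. The series asks what blocking PD-1 does to gene expression in such livers. Each library held 15528364 to 20779319 reads, and values are CPM, read counts scaled to a common library size after adjustment by the trimmed mean of M-values (TMM), in which 3 reads are 0.144 to 0.2 CPM.

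Phf11 proteins carry a PHD finger, a zinc-binding fold that in many proteins reads histone tails. Human PHF11 has been tied to T-helper cytokine genes, where it works with NF-kB, and to the resection of broken DNA ends together with the single-strand binding protein RPA. In the mouse, Phf11 transcripts recur among those induced by interferons. The family sits beside Setdb2, which encodes a histone H3 lysine 9 methyltransferase that is interferon-inducible in mouse macrophages.

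The members lie side by side on chromosome 14, all on the minus strand, in the order Phf11a, Phf11b, Phf11d, Phf11c and then Setdb2. A pseudogene copy of the family, Gm6904, lies on the other side of Phf11a. Their promoters are shown because the members differ in an interferon-type motif close to the start. Each sequence runs from 250 bases before to 50 bases after the RefSeq start (GRCm38.p6), and capitals mark matches to the interferon regulatory factor (IRF) core AANNGAAA. The windows are chr14:59297473-59297772 for Phf11a, chr14:59341281-59341580 for Phf11b, chr14:59365441-59365740 for Phf11d and chr14:59393463-59393762 for Phf11c, all read on the minus strand.
Phf11a: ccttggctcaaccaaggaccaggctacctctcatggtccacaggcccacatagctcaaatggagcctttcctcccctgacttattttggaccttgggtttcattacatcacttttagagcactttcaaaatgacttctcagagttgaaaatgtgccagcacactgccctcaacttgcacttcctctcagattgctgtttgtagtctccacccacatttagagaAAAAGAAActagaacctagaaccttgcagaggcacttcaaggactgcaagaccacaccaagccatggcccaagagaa
Phf11b: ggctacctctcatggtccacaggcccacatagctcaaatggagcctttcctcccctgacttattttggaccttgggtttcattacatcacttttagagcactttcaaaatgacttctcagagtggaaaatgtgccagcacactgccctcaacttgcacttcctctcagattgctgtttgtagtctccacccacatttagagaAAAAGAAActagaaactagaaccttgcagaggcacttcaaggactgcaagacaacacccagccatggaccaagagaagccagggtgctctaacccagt
Phf11d: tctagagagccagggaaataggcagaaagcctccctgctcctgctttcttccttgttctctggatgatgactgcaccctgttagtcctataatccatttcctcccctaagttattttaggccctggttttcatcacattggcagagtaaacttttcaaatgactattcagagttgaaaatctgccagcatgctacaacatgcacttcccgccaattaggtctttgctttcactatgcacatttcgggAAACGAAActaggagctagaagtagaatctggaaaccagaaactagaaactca
Phf11c: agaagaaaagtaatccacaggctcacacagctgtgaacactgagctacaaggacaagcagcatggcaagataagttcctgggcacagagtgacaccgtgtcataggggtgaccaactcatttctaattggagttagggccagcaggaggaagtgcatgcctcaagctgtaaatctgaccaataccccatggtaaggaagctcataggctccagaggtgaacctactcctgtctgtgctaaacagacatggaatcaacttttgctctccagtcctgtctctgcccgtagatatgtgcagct

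Phf11a and Phf11b have almost the same promoter, 98.2% identical over 279 aligned bases. No other pair of members aligned, but the search starts from long exact matches and can miss less close likeness. The lack of an alignment therefore does not show that the other windows are unrelated. The windows of Phf11a and Phf11d do share shorter stretches, for example cagagttgaaaat. Phf11a and Phf11b hold the interferon-stimulated response element (ISRE), here GAAA, any 2 bases and GAAA again. In these 2 members its form is GAAAAAGAAA, which contains the IRF core. With the first transcribed base as position 0, the ISRE lies at -29 to -20 in Phf11a and at -50 to -41 in Phf11b. Phf11d has an IRF core without the full ISRE, AAACGAAA at -3 to 4, and Phf11c has neither in this window. Searched on both strands, the ISRE is in 3.44% and the IRF core in 23.9% of 32851 mouse promoters of the same length. The interferon-gamma type motif TTCNNNGAA, in 8.30% of those promoters, is in none of the 4. CpG dinucleotides number 0 in Phf11a and Phf11b, 2 in Phf11c and 3 in Phf11d, against 29 in the promoter of Setdb2, which holds none of these motifs. These are matches of letters only, and the annotated start of Phf11c differs between RefSeq and GENCODE.

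Before the members' values, 1 library needs naming. The summed level of 10 pan-leucocyte markers was 601 CPM in anti-PD-1 replicate 1, 260 and 286 CPM in anti-PD-1 replicates 2 and 3, and 302, 242 and 210 CPM in the isotype control livers. Hepatocyte markers were abundant in every library, with Alb at 46646 to 52819 CPM after anti-PD-1 and 47115 to 69086 CPM in isotype control livers. Pdcd1, which encodes PD-1, was at 5.43, 0 and 0.62 CPM after anti-PD-1 and at 0.38, 0.27 and 0.10 CPM in isotype control livers. In bulk liver, a change in the number of cells of a type and a change in RNA per cell cannot be told apart.

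Summed over the 4 genes, the Phf11 family stood at 36.6, 44.9 and 42.2 CPM in the anti-PD-1 livers and at 15.6, 19.4 and 16.8 CPM in the isotype control livers. Every anti-PD-1 liver was above every isotype control liver, and the spread within each group was small beside the gap. The group means were 41.2 ± 4.25 CPM after anti-PD-1 and 17.3 ± 1.91 CPM in isotype control livers (SD, n = 3 each), a log2 difference of 1.23 (SE 0.12) on the scale of log2(CPM + 0.5). All log2 differences below are on that scale, anti-PD-1 minus isotype control, and it understates the change of low genes. The members contributed unequally, and the livers with the highest level were not the same for each.

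Phf11a (ENSMUSG00000044703) had 5.04, 3.86 and 4.09 CPM in the anti-PD-1 livers, against 1.62, 1.46 and 1.41 CPM in the isotype control livers. The groups did not overlap, and the isotype control livers lay within a narrow band. The means were 4.33 ± 0.63 CPM after anti-PD-1 and 1.5 ± 0.11 CPM in isotype control livers, a log2 difference of 1.27 (SE 0.19). These levels rest on 58 to 105 reads per anti-PD-1 library and 27 to 30 reads per isotype control library.

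Phf11c (ENSMUSG00000091144) had 13.1, 28.6 and 27.8 CPM in the anti-PD-1 livers, against 3.88, 10.9 and 9.85 CPM in the isotype control livers. The groups did not overlap, but the lowest anti-PD-1 liver, replicate 1, was close to the higher isotype control livers. In both groups replicate 1 had the lowest level, with replicates 2 and 3 at 2.19 and 2.13 times it after anti-PD-1 and at 2.80 and 2.54 times it in isotype control livers. The means were 23.2 ± 8.77 CPM after anti-PD-1 and 8.21 ± 3.78 CPM in isotype control livers, a log2 difference of 1.48 (SE 0.42). Phf11c rested on 272 to 538 reads per anti-PD-1 library and 72 to 201 reads per isotype control library.

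Phf11d (ENSMUSG00000068245) had 13.3, 11.5 and 8.90 CPM in the anti-PD-1 livers, against 8.20, 5.47 and 4.42 CPM in the isotype control livers. The groups did not overlap, although the lowest anti-PD-1 liver and the highest isotype control liver were near each other. Here replicate 1 had the highest level in both groups, the reverse of Phf11c. The means were 11.2 ± 2.19 CPM after anti-PD-1 and 6.03 ± 1.95 CPM in isotype control livers, a log2 difference of 0.87 (SE 0.24).

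Phf11b (ENSMUSG00000091649) had 5.24, 1.00 and 1.35 CPM in the anti-PD-1 livers, against 1.94, 1.57 and 1.11 CPM in the isotype control livers. The groups overlapped, and anti-PD-1 replicate 1 alone stood above the rest. The log2 difference of 0.32 (SE 0.49) was smaller than its error, and without anti-PD-1 replicate 1 it turned to -0.27. Without both livers numbered 1 it was -0.13. Reads were few, 15 to 109 per anti-PD-1 library and 22 to 36 per isotype control library.

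**Figure D1:**
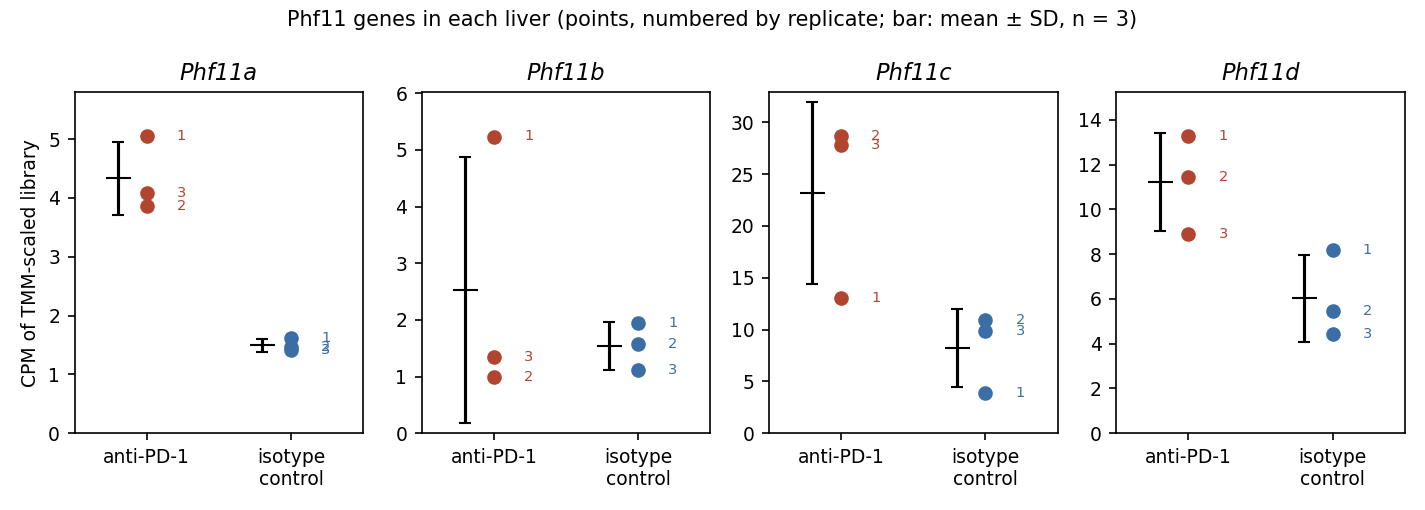
Level of each Phf11 gene (CPM of a TMM-scaled library, vertical axis) in every liver, with points numbered by replicate and bars giving the mean ± SD of 3 mice. The groups are apart for Phf11a, Phf11c and Phf11d and overlap for Phf11b, whose mean after anti-PD-1 rests on replicate 1 at 5.24 CPM.

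All 4 members passed the filter of at least 1 CPM in at least 3 libraries, and each had at least 1 CPM in all 3 isotype control livers. In 3 of the 4 members every anti-PD-1 value was above every isotype control value, which was so for 7.13% of the 13990 genes tested, with 9.98% showing the reverse. A limma fit over those genes (adjusted p under 0.05) called 0 of the 4 members higher, with 0.00715% of genes called. The limma fit blocked on replicate called 1 member, Phf11c, with 0.193% of genes called higher. edgeR on the recovered reads called 0 members, with 0.00715% of genes called higher. DESeq2 called 2 members, Phf11a and Phf11c, with 1.08% of genes called higher. Because the family was picked on this contrast, nothing is read from these counts.

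The makeup of the family's reads, which also depends on transcript length, set replicate 1 of both groups apart from the other livers. Phf11c supplied 35.7, 63.7 and 66.0% of the family's reads in the anti-PD-1 livers and 24.8, 56.1 and 58.7% in the isotype control livers. Phf11d supplied 36.2, 25.5 and 21.1% after anti-PD-1 and 52.4, 28.2 and 26.3% in isotype control livers. In isotype control replicate 1 Phf11d supplied the largest share. In anti-PD-1 replicate 1 the 2 genes were nearly level, at 276 reads for Phf11d and 272 for Phf11c, and in every other liver Phf11c led. Phf11a took 8.59 to 13.8% after anti-PD-1 and 7.54 to 10.3% in isotype control livers. Phf11b took 14.3, 2.22 and 3.19% after anti-PD-1 and 12.4, 8.10 and 6.59% in isotype control livers.

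Levels of different genes can be compared only per length. Per kb of the longest annotated transcript, Phf11c averaged 6.70 ± 2.53 CPM per kb after anti-PD-1 and 2.37 ± 1.09 in isotype control livers. Phf11d averaged 3.77 ± 0.74 CPM per kb after anti-PD-1 and 2.03 ± 0.66 in isotype control livers, and Phf11a averaged 3.20 ± 0.46 after anti-PD-1 and 1.11 ± 0.08 in isotype control livers. Phf11b averaged 2.13 ± 1.99 CPM per kb after anti-PD-1 and 1.3 ± 0.35 in isotype control livers.

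By the median of the 6 livers the order was Phf11c, Phf11d, Phf11a and Phf11b, at 3.46, 2.88, 2.02 and 1.23 CPM per kb. For none of the 6 pairs of members did the difference within a liver stand out from its spread between livers. The test was an exact two-sided sign-flip permutation test, adjusted over the 6 pairs. For the pair at the top, Phf11c over Phf11d, the adjusted p was 0.41, and for Phf11d over Phf11a and over Phf11b it was 0.1875 each. The smallest unadjusted p that 6 livers allow is 0.03125. The outcome depended on the length used: per kb of coding sequence, 4 of the 6 pairs passed (adjusted p = 0.0469, exact), with Phf11c and Phf11d above Phf11a and Phf11b in all 6 livers. The test takes the 6 livers as independent, and over the 3 pairs of same-numbered livers the smallest p would be 0.25, so that no pair of members could pass. The longest annotated transcripts of Phf11c and Phf11d are 3459 and 2973 bases, against 1354 and 1184 bases for Phf11a and Phf11b, whereas their coding sequences are 1017, 1011, 879 and 828 bases in the same order. The 2973-base transcript of Phf11d retains an intron, and with its longest protein-coding transcript, of 2666 bases (an alternative chosen after seeing the data), the level of Phf11d over Phf11a was 0.49 in place of 0.33 on the log2 scale and 0 of the 6 pairs passed.

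**Figure D2:**
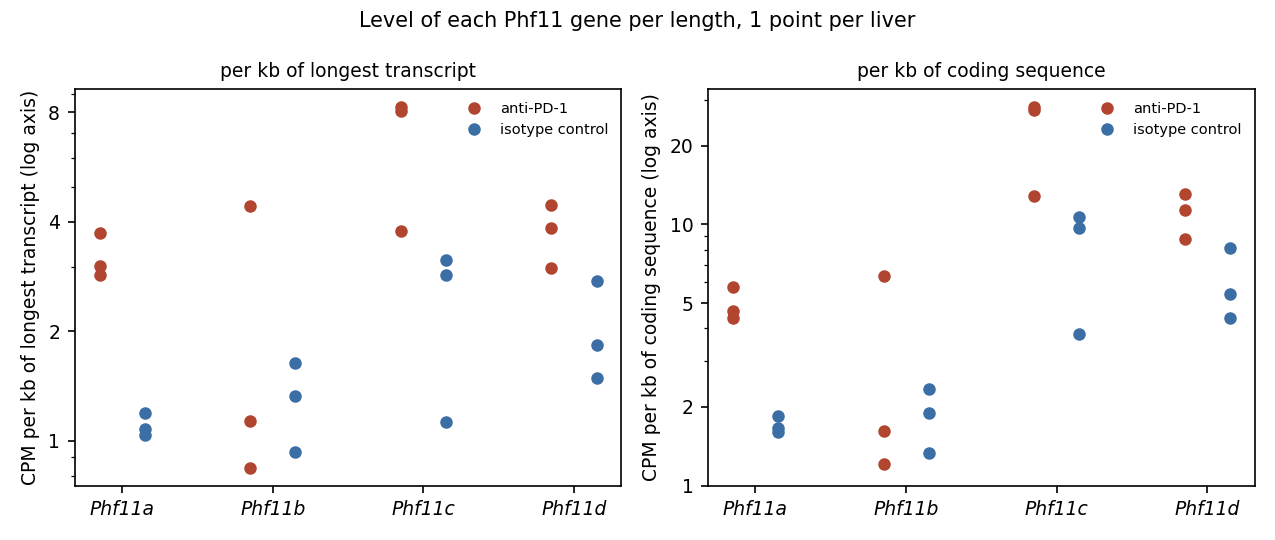
Level of each Phf11 gene per kb of the longest annotated transcript (left) and per kb of coding sequence (right), on log axes, 1 point per liver. In every liver Phf11c and Phf11d lie above Phf11a and Phf11b in the right panel, with coding-length medians of 11.8 and 8.46 CPM per kb. Between livers the points overlap in both panels, in the right one with Phf11c down to 3.82 and Phf11b up to 6.32 CPM per kb.

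The members are near-identical in places, and reads of such stretches cannot be assigned to 1 member with certainty. The transcripts of Phf11a and Phf11b were 97.0% identical over 864 aligned bases, and those of Phf11c and Phf11d 89.1% over 1224 bases. Over shorter stretches Phf11a was 98.1% identical to Phf11d (322 bases) and 96.5% to Phf11c (372 bases). Of the stretches of 100 bases in Phf11a, 8.13% were also found whole in another member or in Gm6904, against 13.8% in Phf11b, 5.86% in Phf11c and 7.05% in Phf11d. At 50 bases the shares were 35.2, 47.0, 10.2 and 13.7%. No stretch of either length in Setdb2 was shared with the family. The reads of Phf11a and Phf11b are therefore the least certain, although these shares do not tell which gene a stretch was shared with. The family sum does not depend on the division of reads between members. Gm6904 had 8, 1 and 1 reads after anti-PD-1 and 0, 0 and 1 reads in isotype control livers, and was not tested.

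The ratio of Phf11b to Phf11a reads, not adjusted for length, was 1.04, 0.26 and 0.33 in the anti-PD-1 livers and 1.20, 1.07 and 0.79 in the isotype control livers. The pair with almost the same promoter window thus kept a ratio near 1 in the isotype control livers and in anti-PD-1 replicate 1, and a lower one in anti-PD-1 replicates 2 and 3, where the CPM of Phf11b was in the isotype control range or under it.

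Phf11c and its neighbour Setdb2 shared a low replicate 1 in both groups. Setdb2 had 59.7, 98.5 and 130.2 CPM in the anti-PD-1 livers, against 20.2, 59.8 and 70.6 CPM in the isotype control livers. Replicate 1 was the lowest of each group and the groups overlapped, and between replicates 2 and 3 the order was the reverse of that of Phf11c in both groups. The log2 difference of Setdb2 was 1.05 (SE 0.47) and did not pass the limma test (adjusted p = 0.46, against 0.0898 with the replicate block, 0.47 by edgeR and 0.57 by DESeq2).

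The ratio of Phf11c to Setdb2 was 0.219, 0.291 and 0.214 in the anti-PD-1 livers and 0.193, 0.182 and 0.140 in the isotype control livers. Its highest value was 2.08 times its lowest, whereas that factor was 4.24 for Phf11a, 9.5 for Phf11b and 6.49 for Phf11d over Setdb2. RefSeq annotates a protein-coding model, Gm45935, that spans Phf11c and Setdb2, starts at the Setdb2 promoter and leaves out Phf11d. It was not analysed here, and whether reads of such a joined transcript enter the Phf11c values was not tested.

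**Figure D3:**
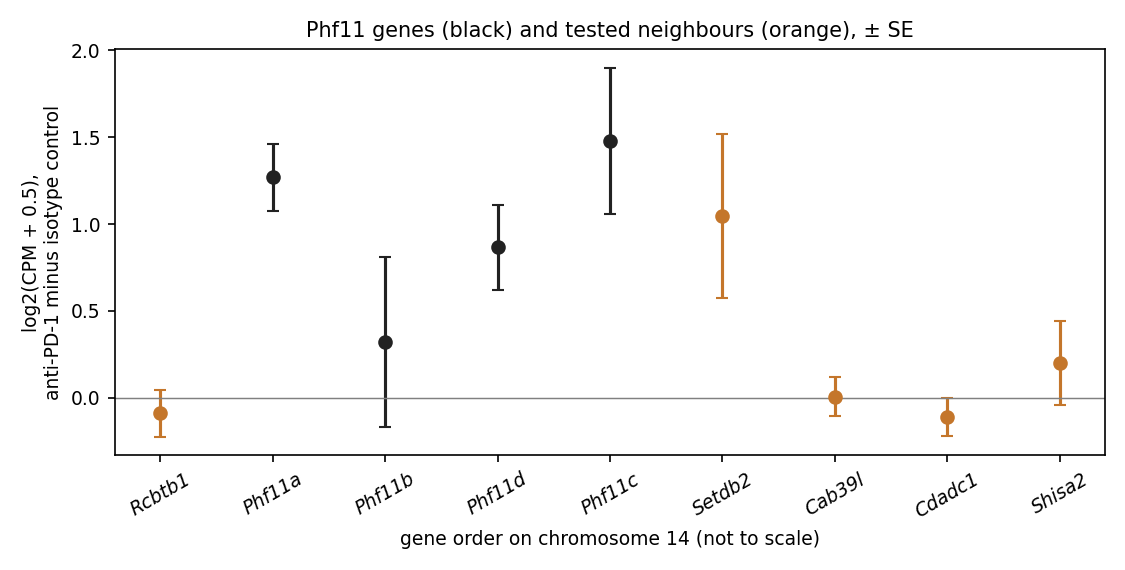
Log2 difference with its SE, anti-PD-1 minus isotype control, for the Phf11 genes (black) and the tested genes around them (orange), in their order on the chromosome. Phf11a, Phf11d, Phf11c and Setdb2 lie between 0.87 and 1.48, Phf11b at 0.32, and the genes outside this run between -0.11 and 0.20.

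Beyond Setdb2 the tested genes around the family differed little between the groups. Cab39l, next to Setdb2 and an adaptor of the kinase LKB1, had 65.2, 70.2 and 83.1 CPM after anti-PD-1 and 73.8, 70.8 and 71.8 CPM in isotype control livers. Rcbtb1, Cdadc1 and Shisa2 had log2 differences of -0.09, -0.11 and 0.20. Fgf9, Atp8a2 and Gm6904 were under the filter. Of the 5 neighbours tested, Setdb2 included, 0 passed the limma test, 0 were under an unadjusted p of 0.05 and 0 were called by DESeq2. The 15 other Phf genes tested, named for the same PHD finger, had a median log2 difference of -0.02 with 6 positive and 9 negative, against 0.0027 over all 13990 genes tested, and limma called 0, with 2 lower at an unadjusted p under 0.05 and 0 called by DESeq2.

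Each member was next set beside all other genes by profile. Likeness was the root mean square, over the 6 livers, of the difference between the genes' log2(CPM + 0.5) values, each taken relative to its own isotype control mean. A smaller value means more alike, and since the measure keeps the difference between groups, it describes these livers and carries no test.

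Phf11c was most like Bcl2l11, which encodes the pro-apoptotic protein BIM, at 0.041, and then Dusp4, a phosphatase of MAP kinases, at 0.145. Bcl2l11 had 31.7, 67.5 and 61.4 CPM after anti-PD-1 and 9.87, 25.6 and 23.1 CPM in isotype control livers. It repeated the low replicate 1 of Phf11c in both groups. Ell2, an elongation factor, followed at 0.243, Sik1, a kinase, at 0.268 and Ppargc1a, a coactivator of mitochondrial and fasting genes, at 0.272. Setdb2 ranked 30th of 13989 genes for Phf11c, at 0.373.

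Phf11d was most like genes of the class I antigen presentation family, H2-Q7 at 0.10, H2-Q5 at 0.112, H2-Q6 at 0.152 and H2-Q4 at 0.170, together with Mx1, an interferon-induced antiviral GTPase, at 0.164. H2-Q7 had 108, 94.5 and 84.3 CPM after anti-PD-1 and 77.5, 49.9 and 44.8 CPM in isotype control livers. The H2-Q genes are near-identical copies whose own read division is uncertain, so they do not count as separate instances.

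Phf11a was most like Gzmb, a granzyme of cytotoxic cells, at 0.178. Gzmb was under 1 CPM in all 3 isotype control livers, at 4 to 8 reads per library. It passed the filter only through the anti-PD-1 livers. Slc2a1, a glucose transporter, followed at 0.230, Cyp2b10, a drug-metabolising cytochrome, at 0.232, Zc3h12a, a ribonuclease that degrades inflammatory mRNAs, at 0.234 and Skil, an inhibitor of SMAD signalling, at 0.242. Phf11d ranked 33rd of 13989 for Phf11a, at 0.368.

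Phf11b was most like Pirb, an inhibitory receptor of myeloid cells, at 0.091. Hk2, a hexokinase, followed at 0.102, Pla2g4a, a phospholipase, at 0.112, S100a4, a calcium-binding protein, at 0.118 and Cd48, a leucocyte surface protein, at 0.126. Pirb had 34.3, 7.12 and 9.05 CPM after anti-PD-1 and 12.1, 10.9 and 7.79 CPM in isotype control livers. Ptprc, the common leucocyte antigen CD45, ranked 93rd for Phf11b at 0.244, with 144, 45.4 and 43.6 CPM after anti-PD-1 and 54.3, 40.1 and 36.2 CPM in isotype control livers. Phf11b and Phf11c were far apart, at 1.39, with Phf11b ranked 11784th of 13989 for Phf11c.

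**Figure D4:**
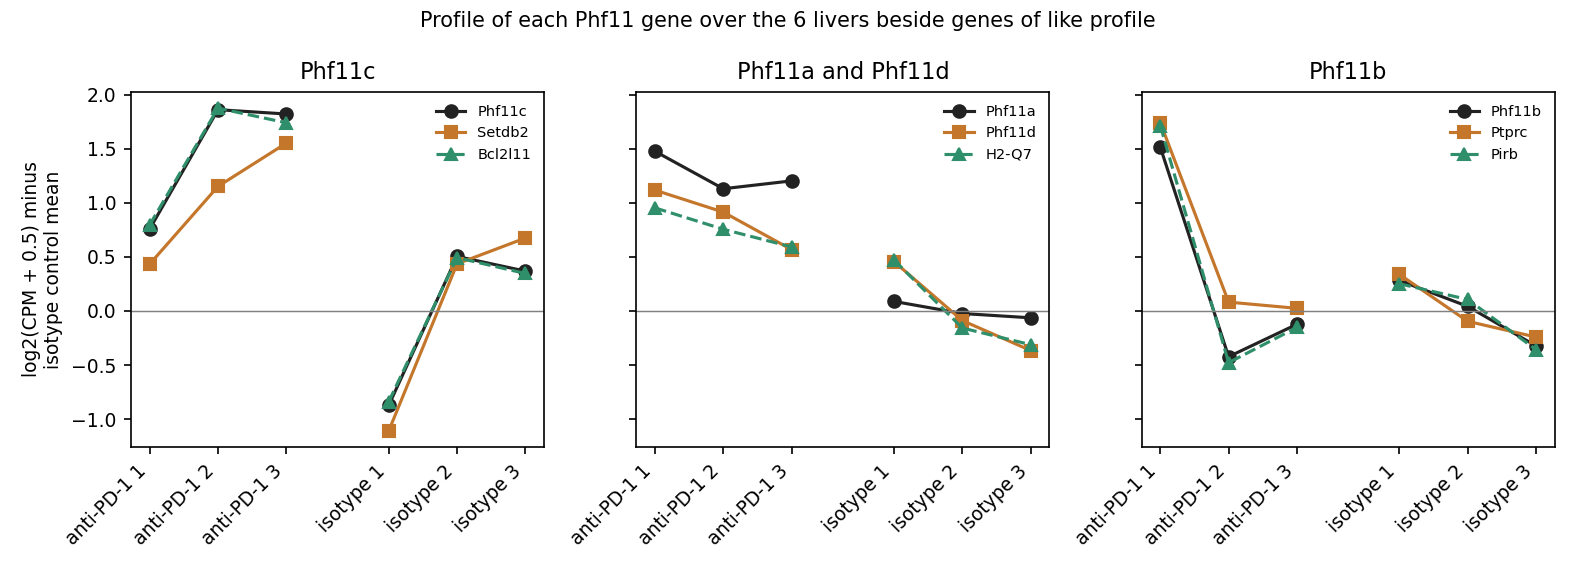
Log2(CPM + 0.5) of each gene relative to its isotype control mean (vertical axis) in the 6 livers (horizontal axis), with lines joining the points of 1 gene in 1 group and replicate numbers carrying no order. Phf11c and Setdb2 are low in replicate 1 of each group, at 0.76 and 0.43 after anti-PD-1 and at -0.87 and -1.11 in isotype control livers, whereas Phf11b and Ptprc are high in anti-PD-1 replicate 1 alone, at 1.51 and 1.74.

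The gene groups tied to the family by what is known of it were then counted in the same limma fit, in which no gene of any list passed the adjusted threshold. Of 24 interferon-gamma response genes tested, 24 had a positive log2 difference, with a median of 0.91, and 10 were higher at an unadjusted p under 0.05, where 5.04% of all genes were higher and 6.24% lower. DESeq2 called 1 of them, Cxcl9, a chemokine that draws T cells, at 88.6, 14.2 and 27.8 CPM after anti-PD-1 and 7.88, 5.79 and 5.53 CPM in isotype control livers. Without anti-PD-1 replicate 1 the list's median was 0.45. 

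Of 39 type I interferon-stimulated genes tested, 27 were positive and 12 negative, with a median of 0.14. In limma 1 was higher and 1 lower at an unadjusted p under 0.05, and DESeq2 called 0. Ifit1, an antiviral RNA sensor, had 14.5, 13.1 and 11.1 CPM after anti-PD-1 and 15.9, 8.93 and 7.29 CPM in isotype control livers, which overlapped. Mx1 had 3.17, 3.06 and 2.59 CPM after anti-PD-1 and 2.54, 1.52 and 0.80 CPM in isotype control livers, without overlap (limma adjusted p = 0.42). Stat2, a transcription factor of type I interferon signalling, had 32.0, 25.8 and 15.3 CPM after anti-PD-1 and 57.3, 38.6 and 31.5 CPM in isotype control livers (limma adjusted p = 0.38). Phf11a, Phf11c and Phf11d, at 1.27, 1.48 and 0.87, were above the median of this list. Because the family was picked for the rise of Phf11a and Phf11c in this contrast, nothing is read from that, and the difference itself was not tested.

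Irf1, an interferon-responsive transcription factor, had 43.8, 12.9 and 13.1 CPM after anti-PD-1 and 24.1, 13.9 and 13.1 CPM in isotype control livers, so that only anti-PD-1 replicate 1 was above all of them. Ifng itself was at 0.72, 0.07 and 0 CPM after anti-PD-1 and 0.05, 0.11 and 0.05 CPM in isotype control livers, under the filter.

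Among 15 genes of NF-kB subunits, their inhibitors and the kinases of those inhibitors, the pathway tied to human PHF11 in cytokine control, 12 were positive and 3 negative, with a median of 0.21, and 3 were higher and 1 lower at an unadjusted p under 0.05. Rel, the lymphoid NF-kB subunit c-Rel, averaged 33.2 ± 3.26 CPM after anti-PD-1 and 19.4 ± 0.77 CPM in isotype control livers, called by DESeq2 but not by limma (limma adjusted p = 0.13). Ikbkg, the regulatory subunit of the IkB kinase, averaged 50.2 ± 4.48 CPM after anti-PD-1 and 65.4 ± 6.53 CPM in isotype control livers (limma adjusted p = 0.31).

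Among 16 genes of DNA end resection and RPA, 6 were positive and 10 negative, with a median of -0.08, and limma and DESeq2 called 0, with 2 higher at an unadjusted p under 0.05. The smallest p-values were for Chek1, the checkpoint kinase, with 4.19 ± 1.13 CPM after anti-PD-1 and 1.82 ± 0.66 CPM in isotype control livers, and Rbbp8, which encodes the resection factor CtIP, with 18 ± 3.01 CPM after anti-PD-1 and 12.8 ± 0.43 CPM in isotype control livers (limma adjusted p = 0.29 and 0.32). The 7 histone H3 lysine 9 methyltransferase genes, Setdb2 among them, had a median log2 difference of 0.05, and Setdb1 averaged 27.4 ± 1.58 CPM after anti-PD-1 and 30.2 ± 0.39 CPM in isotype control livers.

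Markers of immune cells were summed in each liver and set beside the members. The summed level of 16 T cell markers was 79.9, 24.1 and 33.0 CPM after anti-PD-1 and 17, 18.9 and 14.3 CPM in isotype control livers, with none at 0 in every library. The 4 T cell markers tested had a median of 1.43, but Cd3e and Cd8a, for example, were under 1 CPM in all isotype control livers and so could pass the filter only by being higher after anti-PD-1. Cd8a, a co-receptor of cytotoxic T cells, had 11.7, 2.13 and 2.07 CPM after anti-PD-1 and 0.70, 0.49 and 0.35 CPM in isotype control livers, and DESeq2 called it and Cd3e. The 10 pan-leucocyte markers had a median of 0.64, all positive, and 0.12 without anti-PD-1 replicate 1.

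The summed monocyte markers, at 895, 150 and 241 CPM after anti-PD-1 and 271, 162 and 141 CPM in isotype control livers, were high in anti-PD-1 replicate 1, as was Phf11b. The summed B and plasma cell markers, at 144, 17.1 and 24.7 CPM after anti-PD-1 and 36.4, 59.2 and 24.3 CPM in isotype control livers, overlapped between the groups. So did the 11 cytotoxic markers in sum, at 35.4, 5.33 and 9.0 CPM after anti-PD-1 and 7.12, 4.92 and 5.58 CPM in isotype control livers, and the dendritic cell markers, with a median log2 difference of 0.24.

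The summed resident Kupffer cell markers, at 402, 238 and 238 CPM after anti-PD-1 and 469, 218 and 273 CPM in isotype control livers, overlapped between the groups. Of the 10 markers, 3 were positive and 7 negative, with a median of -0.46. The median was -0.11 without isotype control replicate 1 (9 tested) and -0.51 to -0.30 with any other library left out. Without both livers numbered 1 it was 0.09 (7 tested). DESeq2 called 3 of the markers lower, Timd4, Marco and Cd163, where 0.786% of all genes were. These 3 reached 1 CPM in all 3 isotype control livers but in at most 1 anti-PD-1 liver, so they passed the filter only through the isotype control group. Nothing is read from their count or from the median that includes them. Cd163, a haemoglobin scavenger receptor, had 1.44, 0.20 and 0.31 CPM after anti-PD-1 and 17.3, 6.60 and 6.38 CPM in isotype control livers. It passed the limma test with the replicate block (adjusted p = 0.0298), which called 0.0929% of genes lower, but not without it (adjusted p = 0.13). Hepatocyte markers had a median of 0.06. The part of cell makeup in the values of Phf11a, Phf11c and Phf11d was not tested. Without anti-PD-1 replicate 1, the liver with the highest leucocyte sum, their log2 differences were 1.17, 1.84 and 0.74.

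**Figure D5:**
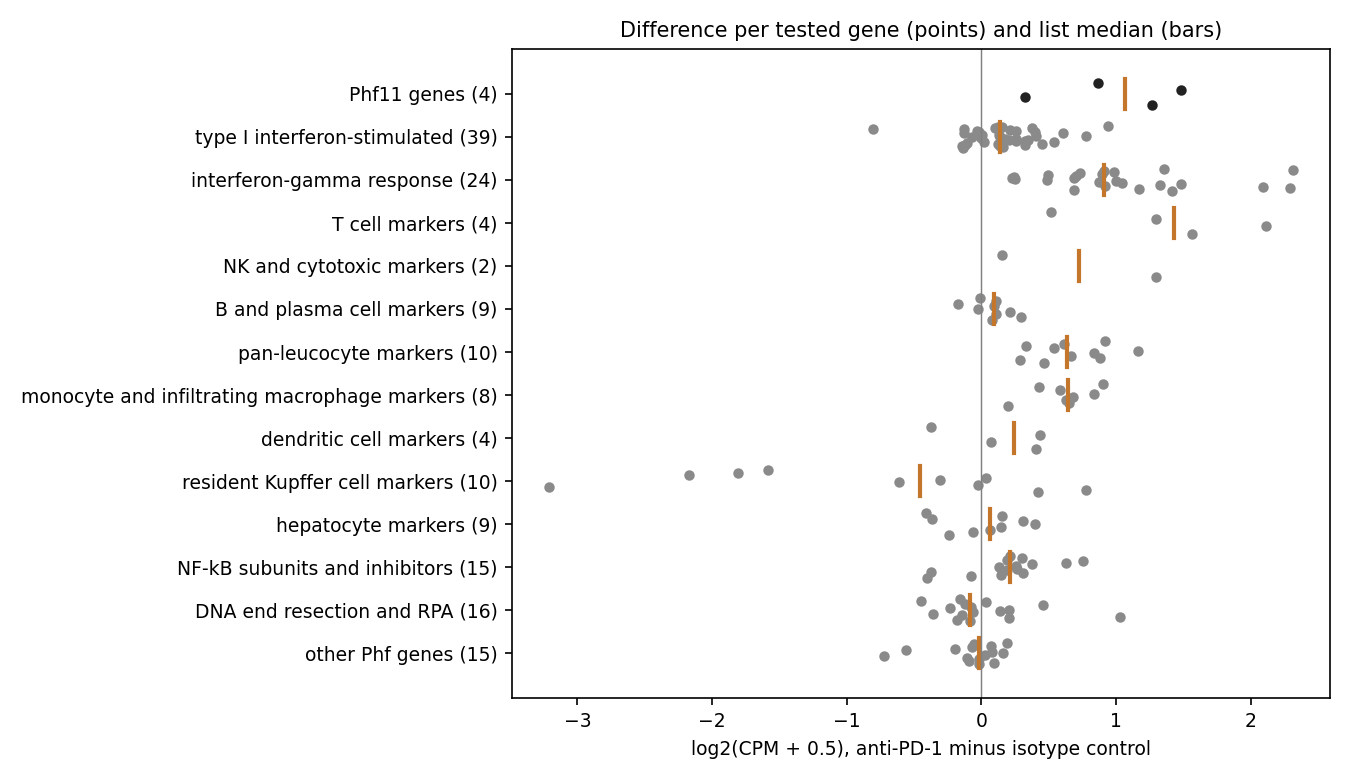
Log2 difference, anti-PD-1 minus isotype control (horizontal axis), of every tested gene (points) and the median of each list (bars), with the number of tested genes in brackets. Phf11a, Phf11c and Phf11d lie at 1.27, 1.48 and 0.87, and the family was picked for the rise of Phf11a and Phf11c in this contrast. The type I list has a median of 0.14, and the interferon-gamma response list 0.91, which is 0.45 without anti-PD-1 replicate 1.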

How the data were processed

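Total RNA of whole liver was depleted of ribosomal RNA and made into directional libraries, per the labels' protocols. Per the submitters' processing notes, edgeR, Bowtie2, Trimmomatic 0.38 and RSEM 1.3.0 were used on build GRCm39, with their roles not given. For each of 21512 genes the authors deposited a normalized signal in every library. All values were whole multiples, within 0.001 read, of the value of 1 read in their library, so counts were recovered (called reads), although rounded estimates of the authors cannot be told from observed reads. TMM factors recomputed from them equalled those implied by the deposited values. The value of 3 reads given as a floor covers counting error only, whereas SDs and SEs are over mice.

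Symbols matched 21407 identifiers, and the others held 1.2 to 2.7% of reads. Genes with at least 1 CPM in at least 3 libraries were tested (13990 genes) with limma 3.58.1 (trend, log2(CPM + 0.5), two-sided, Benjamini-Hochberg, threshold 0.05) in R 4.3.3. Alternatives were edgeR 4.0.16 and DESeq2 1.42.0 on the reads, other pseudocounts, filters and scalings, a replicate block, and each library left out. The scripts were tested on simulated data. Replicates are separate mice. The labels give both groups the replicate numbers 1 to 3 but do not say what the numbers mark. Deviations from the group mean correlated at 0.149, 0.135 and 0.251 for same-numbered livers and at -0.22 to 0.063 for the others. Such deviations cancel within a group of 3, which pushes the other correlations down when the same-numbered ones are positive. By rule the numbers were taken as pairs, but of the fits only the one with the replicate block uses that pairing. The main limma fit, edgeR, DESeq2 and the SEs given do not. In the labels, 2 of the anti-PD-1 livers carry another number after "PD" as their treatment, and the titles, which name PD-1 for all, were followed. Transcript and coding lengths came from GENCODE vM21 and promoters from RefSeq, both of the GRCm38 build, which is older than the submitters' build. Transcripts and promoters were aligned with BLAST 2.17.0.

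Members and gene lists were chosen with earlier results of these data known. The genes named are the members, their neighbours, a few context genes, those with the smallest p in each list, and the 5 named genes most like each member. Rigi, Ido1, Mre11 and Tf were not analysed here, and some list genes are not reported here.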

Additional observations from a re-analysis of the deposited data

How the results depend on the processing

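Phf11c, Phf11d and the family sum were positive under every alternative run, at 1.04 to 1.84, 0.68 to 1.09 and 1.17 to 1.32 on the log2 scale. Phf11a was positive too, at 1.27, but 1.47 and 0.85 with pseudocounts of 0.1 and 2 and 1.53 and 1.55 by edgeR and DESeq2. Phf11b ranged from -0.27 to 0.75, was -0.27 to 0.69 with 1 library left out, and turned negative without anti-PD-1 replicate 1 (-0.27) and without both livers numbered 1 (-0.13). The number of genes past the threshold was 1 in the limma fit, 261 by DESeq2, 40 with the replicate block, 143 without both livers numbered 1 (an alternative chosen after seeing the data) and 0 to 29 with 1 library left out. Among members and list genes, the replicate block changed the calls of Phf11c and Cd163. For the genes of the lists the number was 0, against 7 by DESeq2, 1 with the replicate block, 1 without both livers numbered 1 and 0 to 1 with 1 library left out. Of the 6 pairs of member levels, 0 passed per kb of the longest transcript, and 4 per kb of coding sequence and 4 with no length scaling. The level of Phf11d minus Phf11a was 0.33, and -0.0226 with a pseudocount of 2. The cause was not tested for the counts of genes. Only 3 mice per group, 15 to 109 reads per library for Phf11b and near-identical member transcripts limit the precision.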
